A study of Caenorhabditis elegans with 11 samples.

Results

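Sterile Caenorhabditis elegans hermaphrodites that had shared plates with males for 8 days were compared with hermaphrodites kept without males, on 3 whole-genome expression arrays in each group. These arrays, 6 of the 11 of the series, were chosen by their titles, and all 22548 probe sets that are not controls were compared, with males minus no males. Hermaphrodites of both groups, controls included, carried glp-1(e2141). This allele makes the Notch receptor of the germ line stem cells, which they need to keep dividing, sensitive to temperature, and neither group was given RNAi. Their embryos were raised at 15 °C, and the plates stood at 25 °C, where the mutant is sterile. A 10 cm plate with OP50 bacteria held 500 hermaphrodites in the group without males. In the group with males it held 250 hermaphrodites, put on as first-stage larvae, and 250 wild-type males, put on as last-stage larvae or young adults. The males were removed on day 8, and 200 whole hermaphrodites gave the RNA of each sample. Per the series' design text the 3 samples of a group came from independent experiments. The total number of worms was matched between the plates and the number of hermaphrodites was not, so the presence of males and the smaller number of hermaphrodites cannot be told apart.

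Living with males is known to shorten the life of C. elegans hermaphrodites, through mating and through substances that males secrete. Hermaphrodites with no germ line are known for long life and large fat stores, and the intestine, which digests food, stores fat, makes yolk and carries out much of the detoxification, is the tissue in which most regulators of that long life act. The epidermis secretes the collagen cuticle and many of the antimicrobial peptides. The RNA came from whole worms, so fewer cells of a type and less RNA per cell cannot be told apart in any of the results.

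All values are log2 expression levels as deposited, and a difference of 1 is a 2-fold change. A probe set or gene is said to have risen or fallen when the adjusted p of limma's test, corrected by Benjamini-Hochberg over all 22548 probe sets, was under 0.05. The sign ± gives the standard error of the fit. Across probe sets, the 3 arrays without males had pairwise correlations (r) of 0.9956 to 0.9975, the 3 with males at 0.9946 to 0.9973, and arrays of different groups at 0.9865 to 0.9932, lowest for replicate 1 without males. Intestinal marker genes had a mean level of 8.58 to 8.77 in the 6 arrays, neuronal ones 7.49 to 7.76 and those of body wall muscle 6.22 to 6.46. The 4 epidermal markers were low, with means of 3.04 to 3.97 per gene, and had a mean of 3.53 to 3.72 without and 3.09 to 3.23 with males. The 7 defining male markers, genes of male sensory neurons and of the seminal fluid, had a mean level of 3.42 to 3.47 without and 3.39 to 3.46 with males. Without the seminal fluid protease gene try-5, the other 6 lay between 2.64 and 3.23 per gene, below the median level of all probe sets, 3.88.

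Another 5 arrays of the series come from hermaphrodites of the same genotype and housing under RNAi against utx-1, a histone H3 lysine 27 demethylase gene, with 3 arrays without and 2 with males. They entered the fit only for the estimate of the spread, and give a second males effect from arrays that the comparison without RNAi did not use. Those 2 arrays with males stand apart. They correlated at 0.9612 to 0.9831 with the other 9, which correlated with each other at 0.9865 or more, and 41 of 45 germ cell genes and 18 of 20 oocyte and eggshell genes rose with males under RNAi. The mean level of the oocyte list was 8.31 and 8.58 there, against 4.20 to 5.35 in the other 9 arrays. The part of this germ line RNA in any males effect under RNAi was not tested. At one probe set the targeted gene utx-1 was lower under RNAi, at 4.41 to 5.0 in the RNAi arrays against 7.03 to 7.14 in the 6 others. At its other probe set, of higher signal, the males effect under RNAi minus that without was 2.37. The lower level under RNAi is thus stated for the first probe set only.

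With males, 2661 of the 22548 probe sets changed (11.8%). Of these, 1275 rose (5.65%) and 1386 fell (6.15%). Most changes were small, with a median difference of 0.51 among the rises and -0.45 among the falls. Rises reached larger sizes, with 167 of at least 2-fold and 28 of at least 4-fold, against 86 and 8 falls. The 3 arrays of one group did not overlap with those of the other at 31.3% of all probe sets, and at 2652 of the 2661 that changed. Array by array, replicate 3 with males was the most extreme of its group at 675 of the rises and 876 of the falls. Without single arrays the count ranged from 1362, without replicate 1 of the no-males group, to 2048. It was 1678 without replicate 2 and 1524 without replicate 3 of the group with males, and the count of falls was 689, 849 and 720 without these 3 arrays, while that of rises was 673, 829 and 804.

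**Figure D1:**
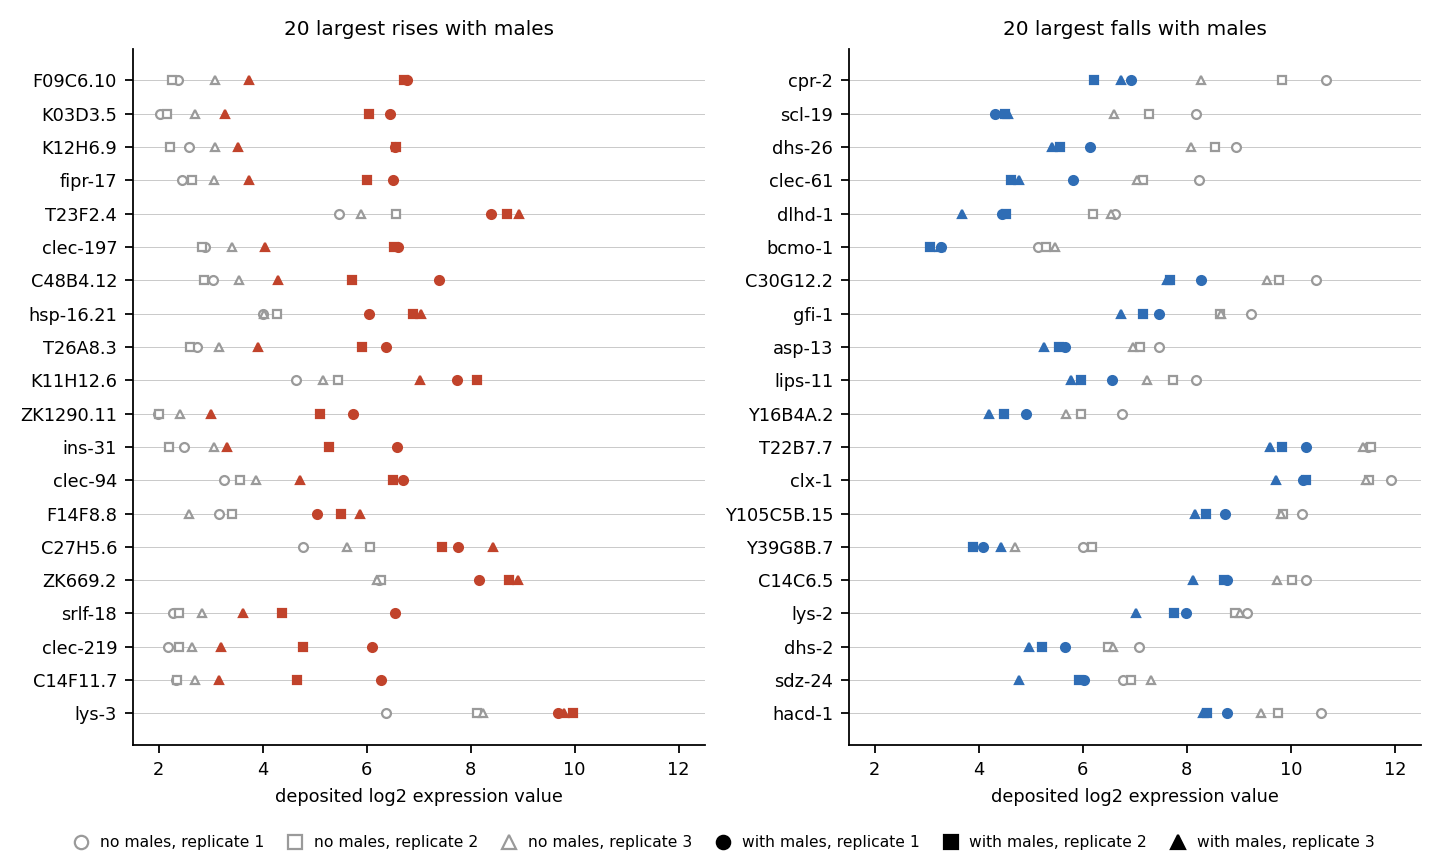
Log2 expression level (horizontal axis) in each of the 6 arrays for the 20 genes with the largest rise (left, red with males) and the 20 with the largest fall (right, blue with males), with open grey symbols for arrays without males and a symbol shape per replicate. Both sets of 20 were picked among called genes whose groups did not overlap. In F09C6.10, replicates 1 and 2 with males read 6.77 and 6.72 and replicate 3 read 3.74, whereas the 3 arrays with males lie close together in falls such as scl-19.

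The 20 largest falls and the 20 largest rises were picked among called genes whose groups of arrays did not overlap. Their separation was thus set by the choice. The falls had sizes up to 2.97. The first of them, cpr-2, which encodes a cathepsin B-like protease, read 10.68, 9.83 and 8.27 without males and 6.92, 6.22 and 6.73 with males, a fall of 2.97 ± 0.61 (adjusted p = 0.00957). The gene scl-19, of the secreted SCP/TAPS family, read 8.18, 7.27 and 6.60 without and 4.31, 4.51 and 4.57 with males (adjusted p = 0.000456). In both genes replicate 1 without males was the highest array and the 3 arrays with males lay within 1 log2 unit of each other. The short-chain dehydrogenase gene dhs-26 went from 8.94, 8.54 and 8.08 to 6.13, 5.57 and 5.41 (adjusted p = 0.0017). The carotenoid monooxygenase gene bcmo-1 read 5.14, 5.29 and 5.47 without and 3.27, 3.06 and 3.26 with males, a fall of 2.1 ± 0.15 (adjusted p = 3.37e-05). Its arrays lay in a narrow range within each group. The aspartyl protease gene asp-13 fell from 7.47, 7.11 and 6.97 to 5.66, 5.54 and 5.25 (adjusted p = 0.000201). The lysozyme gene lys-2 went from 9.16, 8.92 and 9.02 to 7.98, 7.76 and 7.02 (adjusted p = 0.00475), and hacd-1, of the hydroxyacyl-CoA dehydrogenase family, from 10.59, 9.75 and 9.42 to 8.77, 8.39 and 8.31 (adjusted p = 0.0104). In lys-2 replicate 3 with males was the lowest array.

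Among the largest rises some were alike in the 3 arrays with males. The gene ZK669.2 read 6.23, 6.27 and 6.21 without and 8.17, 8.74 and 8.92 with males, a rise of 2.37 ± 0.15 (adjusted p = 1.97e-05). A gene of the small heat shock family, hsp-16.21, read 4.01, 4.27 and 4.02 without and 6.04, 6.90 and 7.05 with males (adjusted p = 0.0016). T23F2.4 rose from 5.47, 6.57 and 5.90 to 8.39, 8.70 and 8.93 (adjusted p = 0.000126). In these genes the lowest array with males stood well above the highest array without. F14F8.8 rose from 3.17, 3.41 and 2.59 to 5.04, 5.50 and 5.87 (adjusted p = 0.00101). The lysozyme gene lys-3 read 6.38 in replicate 1 without males and 8.13 and 8.23 in the others, against 9.69, 9.97 and 9.80 with males (adjusted p = 0.00494). Its rise was therefore uneven on the side without males, where replicate 1 was low.

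Other large rises rested on replicates 1 and 2 with males. At 15 probe sets, singled out after their values were seen, both of these arrays were at least 1.5 log2 units above each of the other 4. Replicate 3 with males was above the arrays without males there too, but nearer to them than to the other arrays with males. K12H6.9 read 2.59, 2.22 and 3.09 without males, 6.54 and 6.57 in replicates 1 and 2 with males and 3.53 in replicate 3. The C-type lectin gene clec-197 read 2.90, 2.83 and 3.42, then 6.61, 6.53 and 4.05. The fungus-induced peptide gene fipr-16 read 2.77, 2.43 and 3.01, then 5.11, 5.93 and 3.54. The others were F09C6.10, K03D3.5, fipr-17, T26A8.3, ZK1290.11, ins-31, clec-94, clec-219, C35B1.3, K12H6.4, iff-1 and Y110A2AL.7. Besides them, C48B4.12, srlf-18 and C14F11.7, 3 of the 20 largest rises, were highest in replicate 1 with males. C48B4.12 read 7.40 there and 5.72 and 4.29 in replicates 2 and 3, srlf-18 read 6.55 against 4.37 and 3.63, and C14F11.7 read 6.28 against 4.67 and 3.17. The calls of these 3 genes, and of K12H6.9, ins-31, clec-219 and iff-1, ended when the prior was made trended and robust. Without that array the difference of srlf-18 was 1.5 instead of 2.35 and that of C14F11.7 was 1.46 instead of 2.24. Replicate 1 with males was at least 1 unit above all of the other 5 arrays at 41 probe sets, against 4 or fewer for each other array.

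Lists of oocyte, major sperm protein and male genes differed in which array with males had the highest mean. The mean over 20 oocyte and eggshell genes was 5.35, 5.06 and 4.77 in replicates 1, 2 and 3 with males and 4.36, 5.0 and 4.57 without, and 3 of its members rose. That count was 0 without replicate 1 of the no-males group or replicate 2 with males, and 1 without replicate 3 of the no-males group, without replicate 1 with males, without shared probe sets or with the trended and robust prior. The eggshell gene cpg-3 read 5.71, 4.30 and 3.9 with males and 3.02, 3.93 and 3.45 without (adjusted p = 0.0859). The mean over 23 major sperm protein genes was 4.36, 4.90 and 4.33 with and 4.09, 4.19 and 4.40 without males, with 0 called in limma's test and 6 higher at an unadjusted p under 0.05. Over all 17118 genes, 2041 were higher and 2504 lower at that unadjusted p. For 24 genes of male neurons and seminal fluid the means were 3.70, 3.65 and 3.71 with and 3.69, 3.63 and 3.65 without males, with 0 of 24 called and 3 at an unadjusted p under 0.05. In that list clec-207, which like cpg-3 was picked after its values were seen, read 4.88 in replicate 1 with males and 2.80 to 3.31 in the other 5 arrays. The part of oocyte or sperm RNA in the rises that rest on replicates 1 and 2 was not tested.

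Probe sets of high signal changed as well. Among the 8 brightest rises of at least 1.5-fold, hsp-16.2, of the small heat shock family, read 10.44, 10.93 and 11.38 without and 11.65, 11.65 and 11.63 with males (adjusted p = 0.0226). F53A9.6 read 10.95, 11.33 and 11.38, then 11.84, 11.92 and 11.99 (adjusted p = 0.00628), and F57C2.4 read 10.42, 11.01 and 11.01, then 11.50, 11.53 and 11.34 (adjusted p = 0.0118). In these genes replicate 1 without males was the lowest array. The others were ZC373.2, ZK813.2, Y37D8A.19, Y62H9A.3 and ule-5, with rises of 0.66 to 0.95. Without replicate 1 of the no-males group the differences were 0.45 for ZC373.2, 0.58 for Y37D8A.19, 0.51 for Y62H9A.3 and 0.46 for ule-5, and the call of hsp-16.2 ended. That call ended also without replicate 2 of the no-males group or any one array with males, and the calls of the other 5 ended in 1 to 5 settings each. The 8 brightest falls were those of dod-6 (adjusted p = 0.013), asp-3, spp-1, ZK1320.2, clx-1, mbug-1, ilys-3 and T22B7.7. The saposin-like gene spp-1, an antibacterial pore-forming protein gene of the gut, read 11.27, 11.19 and 11.14 without and 10.63, 10.60 and 10.45 with males (adjusted p = 0.00405). T22B7.7 fell from 11.49, 11.54 and 11.38 to 10.30, 9.83 and 9.60 (adjusted p = 0.00178). The calls of clx-1 (adjusted p = 0.0446) and mbug-1 (0.0412) ended in 8 of the alternative settings each, and those of dod-6 and ilys-3 without replicate 1 of the no-males group or replicate 3 with males. The yolk protein genes had 0 of 5 members called in limma's test, and 2 at an unadjusted p under 0.05. Of these, vit-2 read 11.92, 11.85 and 11.89 without and 12.11, 12.06 and 12.09 with males (adjusted p = 0.0779), and vit-1 read 9.58, 9.11 and 8.75, then 8.40, 8.42 and 8.28 (adjusted p = 0.055).

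Gene lists by function were described with the brightest probe set of each gene, and the lists are read against the 17118 genes with such a probe set, of which 5.61% rose and 6.86% fell, with a median difference of -0.01. At an unadjusted p under 0.05, 2041 of the 17118 were higher and 2504 lower. Calls are more frequent at high levels. Among the 8736 genes above the median level of all probe sets, 9.29% rose and 11.8% fell.

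**Figure D2:**
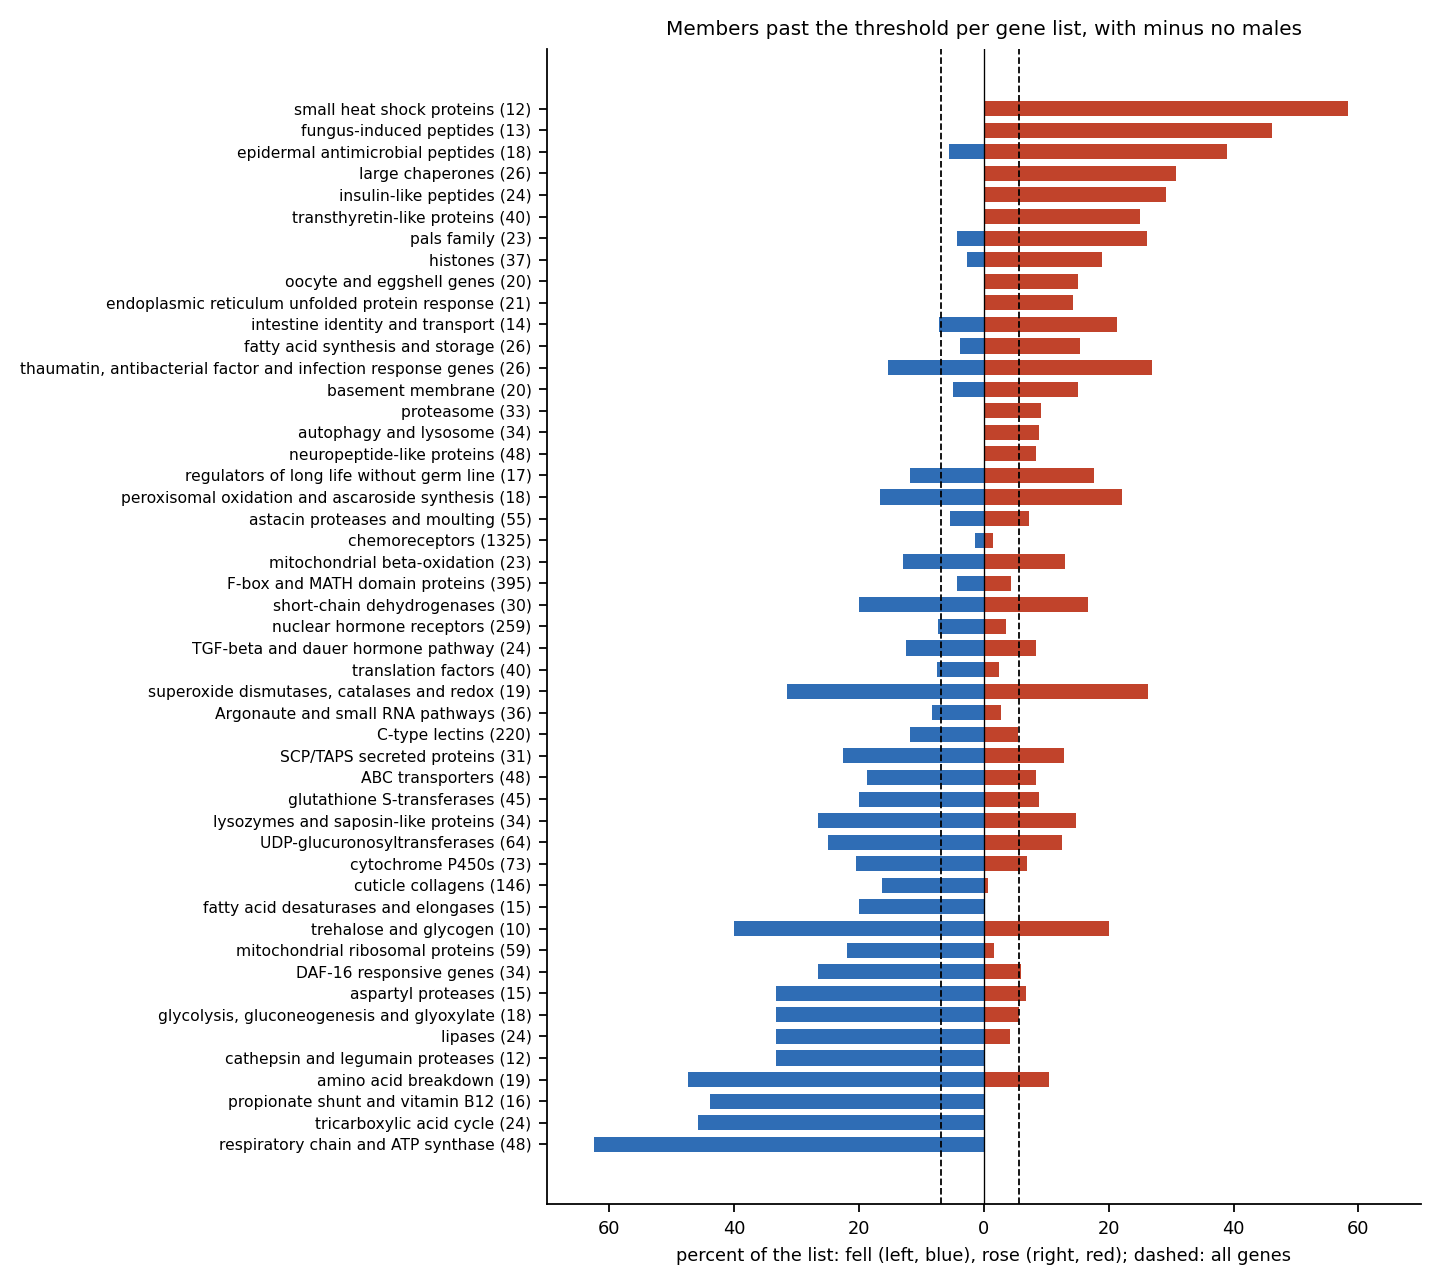
Percent of the members of each gene list that rose (right) or fell (left) with males, for lists of at least 10 measured genes with at least 3 calls in a direction, with the number of genes in brackets and the percent over all genes as dashed lines. Lists of energy metabolism lie at the bottom, with 30 of 48 respiratory chain genes lower, and small heat shock proteins, with 7 of 12 higher, at the top.

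Nuclear genes of mitochondrial energy production fell together. Of 48 genes for the respiratory chain and ATP synthase, which turn reduced cofactors into ATP, 30 fell and 0 rose, and the median difference was -0.33. The ATP synthase subunit gene asb-2 read 9.73, 9.44 and 9.59 without and 8.98, 8.83 and 8.89 with males, a fall of 0.69 ± 0.10 (adjusted p = 0.00188). The complex I subunit gene nuo-6 went from 8.16, 8.10 and 8.15 to 7.74, 7.80 and 7.64 (adjusted p = 0.00403). The complex III gene ucr-2.1 went from 9.86, 9.74 and 9.80 to 9.48, 9.36 and 9.43 (adjusted p = 0.00603). The arrays of the groups did not overlap in any of the 3 genes, which adds nothing to their calls. Of the 2661 probe sets that changed, 2652 did not overlap, against 31.3% of all. The list's mean level was 9.13, 9.01 and 9.02 without and 8.75, 8.73 and 8.72 with males. With replicate 1 of the no-males group left out, 18 of the 48 were called, and 16 without probe sets shared between genes.

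The tricarboxylic acid cycle, which feeds that chain, had 11 of 24 genes lower and 0 higher, with a median of -0.32. Subunits of the pyruvate and oxoglutarate dehydrogenase complexes were among them. The gene dlat-1, for the acetyltransferase of the pyruvate dehydrogenase complex, read 8.48, 8.40 and 8.44 without and 7.95, 7.85 and 7.79 with males, a fall of 0.58 ± 0.07 (adjusted p = 0.00102). The gene of its partner subunit, pdhb-1, read 7.75, 7.47 and 7.55, then 7.10, 7.11 and 6.85 (adjusted p = 0.00497). The oxoglutarate dehydrogenase subunit gene dlst-1 fell by 0.44 ± 0.07 and the isocitrate dehydrogenase gene idh-2 by 0.48 ± 0.07. The falls in these 4 genes kept their calls in the settings that held them, which for all but idh-2 leaves out the one without shared probe sets. The count of lower genes was 6 without replicate 1 of the no-males group, 5 without replicate 3 with males and 4 without shared probe sets.

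Genes of the mitochondrial ribosome, which makes the chain's mitochondrially encoded subunits, had 13 of 59 members lower and 1 higher, with a median of -0.14. The gene mrpl-17 read 6.99, 7.06 and 7.27 without and 6.61, 6.58 and 6.57 with males (adjusted p = 0.0049). The others named are mrps-25 (-0.47), mrps-9 (-0.36) and mrpl-55 (-0.35), and mrps-5 rose by 0.28 with a call that ended in 7 settings. The 75 cytosolic ribosomal protein genes had 1 fall, of rpl-23A.2 by 0.30, and 0 rises, and a median of -0.07. Leaving out any one of the 6 arrays gave 6 to 8 falls among the mitochondrial ribosomal genes.

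**Figure D3:**
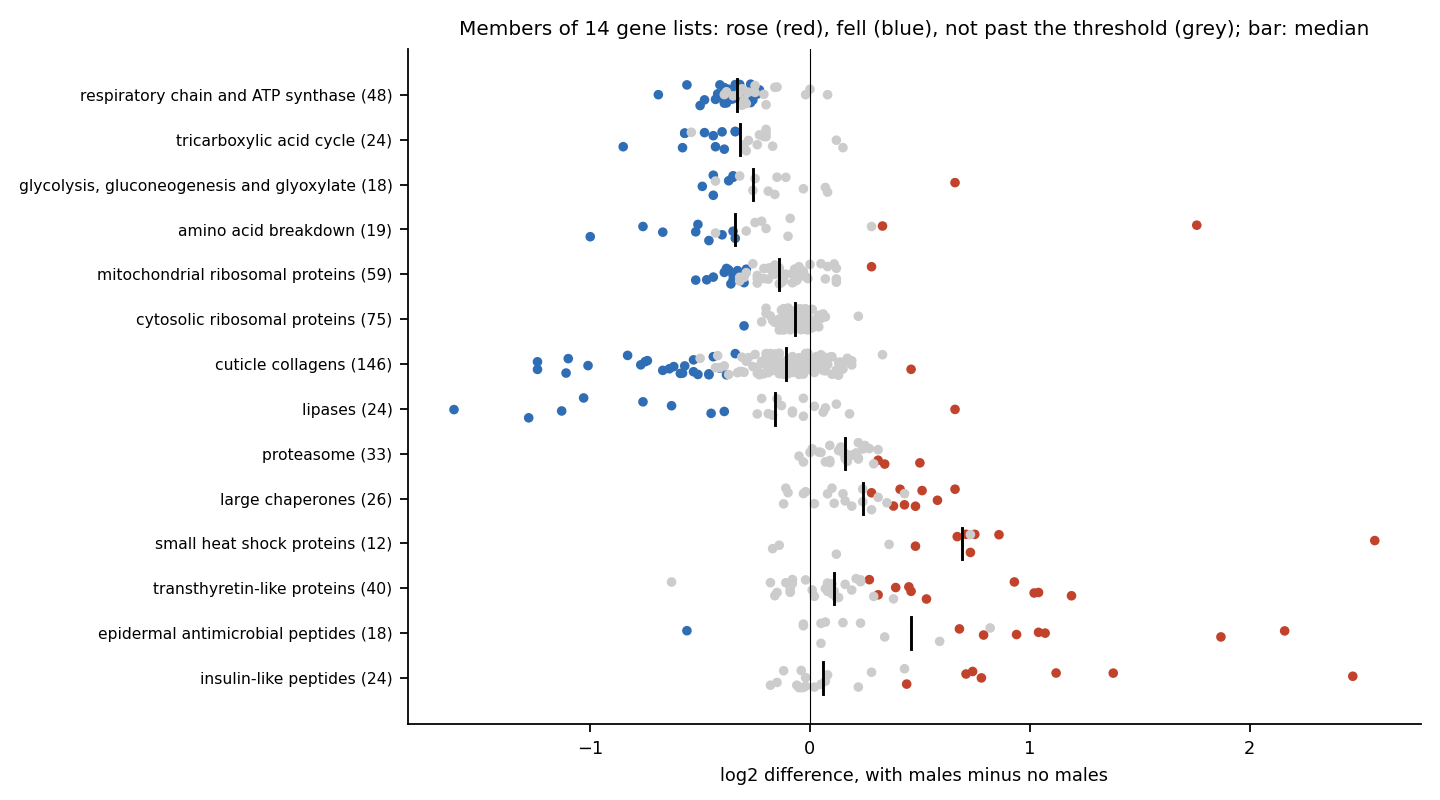
Log2 difference between arrays with and without males for each member of 14 gene lists, with the list's median as a bar and members that rose or fell in red or blue. Respiratory chain, tricarboxylic acid cycle and amino acid breakdown genes lie mostly below 0, with medians of -0.33, -0.32 and -0.34, and small heat shock genes mostly above it, with a median of 0.69.

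Sugar metabolism was lower at several steps. Of 18 genes of glycolysis, gluconeogenesis and the glyoxylate cycle, 6 fell and 1 rose, with a median of -0.26. The aldolase gene aldo-2 read 12.22, 12.22 and 12.30 without and 11.98, 11.87 and 11.81 with males (adjusted p = 0.00993), and the phosphoglycerate mutase gene ipgm-1 went from 9.60, 9.50 and 9.63 to 9.24, 9.14 and 8.89 (adjusted p = 0.0105). The gene that rose was the hexokinase gene hxk-1, from 7.57, 7.66 and 7.60 to 8.09, 8.19 and 8.54 (adjusted p = 0.0127). Hexokinase stands at the entry of glycolysis, and the called falls named here lie below it. The falls of pgk-1 and gpi-1 (adjusted p = 0.0156 and 0.0272) ended in 2 and 5 settings. The count of falls was 2, 3 and 3 without replicate 1 or 3 of the no-males group or replicate 2 with males, and 3 without shared probe sets.

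Stores of trehalose and glycogen, the worm's reserve sugars, had 4 of 10 genes lower and 2 higher. The glycogenin gene gyg-1, whose protein primes glycogen chains, read 6.30, 7.05 and 7.19 without and 8.29, 8.42 and 8.46 with males, a rise of 1.55 ± 0.21 (adjusted p = 0.00174). The glycogen phosphorylase gene pygl-1, whose enzyme breaks glycogen down, fell from 7.34, 7.26 and 7.14 to 6.45, 6.42 and 6.81 (adjusted p = 0.00405). The trehalase genes went both ways, with tre-5 up by 0.87 ± 0.13 (adjusted p = 0.00215), tre-1 down by 0.57 ± 0.10 (0.00444) and tre-4 down by 0.74 ± 0.16 (0.0113). Trehalases split trehalose into glucose. In none of these 5 genes did the arrays of the groups overlap. That holds for 2652 of the 2661 probe sets that changed and for 31.3% of all, so it adds nothing to the calls.

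Amino acid breakdown was lower in 9 of 19 genes and higher in 2, with a median of -0.34. Both steps of tryptophan breakdown that are named fell. The kynureninase gene kynu-1 went from 8.62, 8.49 and 8.72 to 7.79, 7.73 and 7.33, a fall of 1.00 ± 0.14 (adjusted p = 0.00195), and the tryptophan dioxygenase gene tdo-2 from 9.38, 9.35 and 9.41 to 8.85, 8.89 and 8.83 (adjusted p = 0.00196). The 2 rises were in genes of tyrosine breakdown. The tyrosine aminotransferase gene tatn-1 read 5.66, 6.44 and 6.35 without and 7.86, 7.81 and 8.05 with males, a rise of 1.76 ± 0.21 (adjusted p = 0.000876), and hpd-1, the gene of the next enzyme, had a rise of 0.33 whose call (adjusted p = 0.0379) ended in 7 settings. The 4-aminobutyrate transaminase gene gta-1 fell by 0.46 ± 0.08 and dbt-1, of branched-chain amino acid breakdown, by 0.40 ± 0.08. The count of falls was 4 without replicate 3 of either group.

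In the list of propionate breakdown and vitamin B12 use, 7 of 16 genes fell and 0 rose, with a median of -0.31. Propionate, which bacteria-fed worms must clear, is broken down by a vitamin B12-dependent route or by a shunt. The shunt genes hphd-1 and ech-6 fell by 0.45 ± 0.09 and 0.41 ± 0.08 (adjusted p = 0.00744 and 0.00715). In hphd-1 the arrays read 6.77, 6.65 and 6.77 without and 6.4, 6.27 and 6.16 with males. The shunt's hach-1 and the B12-related mmaa-1 fell by 0.39 and 0.48, with calls that ended in 3 and 4 settings. Without replicate 3 of either group 2 genes were called, and 4, 3 and 4 without replicates 1 or 2 of the no-males group or replicate 2 with males. Of the genes of one-carbon and phosphatidylcholine metabolism, pmt-2, for a phosphoethanolamine methyltransferase, had the smallest p, with 9.92, 9.87 and 9.88 without and 9.09, 9.10 and 8.97 with males, a fall of 0.84 ± 0.07 (adjusted p = 8.91e-05). In the same list mel-32, for serine hydroxymethyltransferase, fell by 0.76 ± 0.15, and pcyt-1, of the other route to phosphatidylcholine, rose by 0.61 ± 0.12, so that the list held 2 falls and, with sams-1, 2 rises among 18. Without replicate 2 of the no-males group or any one array with males it held 1 rise, and the call of sams-1 (adjusted p = 0.0385) ended in 8 settings.

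Genes of lipid metabolism were called in both directions. Lipases, which release fatty acids, had 8 of 24 members lower and 1 higher, with a median of -0.16. The lysosomal lipase gene lipl-5 fell from 8.55, 8.21 and 7.95 to 7.11, 6.87 and 6.90 (adjusted p = 0.000617), and lipl-1 from 7.88, 7.44 and 7.48 to 6.82, 6.8 and 6.07 (adjusted p = 0.00987). The one lipase gene that rose was lips-16, from 5.65, 5.47 and 5.38 to 6.21, 6.07 and 6.21 (adjusted p = 0.0023). Without replicate 1 of the no-males group, or replicate 3 with males, 5 lipase genes were lower. Of 15 desaturase and elongase genes, which make polyunsaturated fatty acids, 3 fell and 0 rose. The desaturase gene fat-3 read 12.02, 11.79 and 11.87 without and 11.56, 11.44 and 11.33 with males (adjusted p = 0.00917), and the elongase gene elo-1 fell by 0.39 ± 0.08 (adjusted p = 0.00894).

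Of 26 genes of fatty acid synthesis, activation and storage 4 rose and 1 fell. The acyl-CoA synthetase gene acs-3 read 4.39, 4.76 and 5.34 without and 6.33, 6.56 and 6.43 with males, a rise of 1.61 ± 0.21 (adjusted p = 0.00131). The lipid droplet protein gene plin-1, a perilipin, rose from 9.79, 9.67 and 9.85 to 10.16, 10.09 and 10.32 (adjusted p = 0.00779). The gene sbp-1, for the sterol regulatory element-binding protein that drives fatty acid synthesis, fell by 0.47 ± 0.11 (adjusted p = 0.0185), a call that ended without replicate 1 of the no-males group or replicate 2 with males. Of 18 peroxisomal genes, several of which make the ascaroside pheromones, 4 rose and 3 fell. The synthetase gene acs-7, of the ascaroside pathway, rose from 6.27, 7.09 and 7.33 to 8.71, 8.91 and 9.01, by 1.98 ± 0.22 (adjusted p = 0.000653). The acyl-CoA oxidase gene acox-1.5 fell from 8.39, 7.64 and 7.72 to 6.90, 7.01 and 6.36 (adjusted p = 0.0113). The later ascaroside enzyme genes daf-22 and maoc-1 gave 0.32 and 0.25 (adjusted p = 0.027 and 0.0433), with calls that ended in 6 and 9 settings. Without single arrays 1 or 2 of the 18 were called higher. Of 23 genes of mitochondrial beta-oxidation 3 rose and 3 fell, with acdh-2 at 3.28, 3.26 and 3.35 without and 3.79, 3.83 and 4.02 with males (adjusted p = 0.00192) and ech-7 at 7.92, 7.34 and 7.40, then 6.90, 6.92 and 6.90 (adjusted p = 0.00766).

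Digestive enzymes of the gut were mostly lower where they changed. Of 15 aspartyl protease genes 5 fell and 1 rose, and 5 fell also without each single array, and 3 without shared probe sets. The gene asp-14 fell from 8.71, 8.44 and 8.47 to 7.44, 7.44 and 6.70 (adjusted p = 0.00321), and asp-12 from 10.03, 9.90 and 10.18 to 9.44, 9.26 and 9.04 (adjusted p = 0.00207). The one that rose was asp-1, from 12.76, 12.78 and 12.86 to 13.12, 13.17 and 13.19 (adjusted p = 0.0104). Of 12 cathepsin and legumain genes 4 fell and 0 rose, and 2 fell without replicate 1 of the no-males group. Apart from cpr-2, the gene cpr-8 fell by 0.88 ± 0.14 (adjusted p = 0.0035) and cpr-6 by 0.41 ± 0.09 (0.0115). Other intestinal genes went both ways. The gut esterase gene ges-1 fell by 0.86 ± 0.20 (adjusted p = 0.0175, ended in 3 settings), while act-5, the actin of intestinal microvilli, rose from 9.91, 10.14 and 10.28 to 10.72, 10.62 and 10.50 (adjusted p = 0.00849) and the sodium-proton exchanger gene nhx-2 rose by 0.54 ± 0.09 (0.00295). The intestinal GATA factor gene elt-2 gave -0.12 and -0.04 at its 2 probe sets (adjusted p = 0.572 and 0.877).

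Detoxification families had more falls than rises. Of 64 UDP-glucuronosyltransferase genes, which attach sugars to toxins and hormones, 16 fell and 8 rose. The gene ugt-63 fell from 7.99, 8.08 and 7.84 to 6.56, 6.50 and 6.61 (adjusted p = 1.97e-05). With the same adjusted p, ugt-16 rose from 3.15, 3.31 and 3.01 to 4.85, 4.88 and 5.26. The gene ugt-9 rose from 4.06, 4.0 and 4.52 to 6.01, 6.38 and 6.24 (adjusted p = 6.11e-05), and ugt-66 fell from 7.56, 7.08 and 6.74 to 5.79, 5.88 and 5.75 (0.00202). The arrays of the groups did not overlap in any of these 4 genes, as at 2652 of the 2661 probe sets that changed and 31.3% of all. Of 73 cytochrome P450 genes, which oxidise toxins and lipids, 15 fell and 5 rose, with cyp-25A1 going from 7.68, 7.50 and 7.64 to 6.56, 6.50 and 5.93 (adjusted p = 0.00192) and cyp-13B1 rising by 1.09 ± 0.24 (0.0125, ended without replicate 3 with males). The 45 glutathione S-transferase genes had 9 falls and 4 rises, of which gst-26 fell by 0.72 ± 0.13 (adjusted p = 0.00509) and gstk-2 rose by 0.90 ± 0.14 (0.0032). Without replicate 1 of the no-males group the falls were 7 for the UDP-glucuronosyltransferases, 7 for the cytochrome P450s and 2 for the glutathione S-transferases. Without replicate 2 with males they were 10, 9 and 3, without replicate 3 with males 10, 8 and 2, and the glutathione S-transferases had 5 without replicate 3 of the no-males group. The rises of the UDP-glucuronosyltransferases numbered 5 without replicate 3 of either group or replicate 1 with males, and those of the glutathione S-transferases 1 or 2 without any one array.

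Short-chain dehydrogenases and ABC transporters also moved in both directions, with 6 falls and 5 rises of 30 and 9 falls and 4 rises of 48. The gene dhs-4 rose from 3.76, 3.87 and 3.85 to 4.76, 5.14 and 5.12 (adjusted p = 0.00143), and dhs-2 fell from 7.09, 6.49 and 6.58 to 5.65, 5.22 and 4.96 (adjusted p = 0.00717). Among the transporters wht-7 fell from 7.29, 7.29 and 7.22 to 6.70, 6.67 and 6.67 (adjusted p = 0.00112) and haf-2 rose by 0.89 ± 0.15 (0.00353). Without shared probe sets 2 dehydrogenase genes fell and 1 rose, and 2 transporter genes rose without replicate 3 of either group. Of 18 genes of the response to metals 2 fell and 0 rose, both cadmium-responsive, with cdr-2 at 9.59, 9.14 and 9.39 without and 8.48, 8.19 and 7.97 with males (adjusted p = 0.00494) and cdr-6 lower by 0.67 ± 0.12. The metallothionein genes in that list were not called.

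Small heat shock proteins, which hold unfolded proteins in solution, had 7 of 12 genes higher and 0 lower, with a median of 0.69. Both the inducible hsp-16 genes and the hsp-12 genes took part. The gene hsp-16.41 read 9.98, 10.40 and 10.79 without and 11.07, 11.13 and 11.08 with males (adjusted p = 0.012), and hsp-12.6 read 7.84, 8.05 and 8.27, then 8.57, 8.91 and 8.69 (adjusted p = 0.00452). The gene hsp-12.3 rose from 8.57, 8.95 and 8.95 to 9.51, 9.88 and 9.66, by 0.86 ± 0.15 (adjusted p = 0.0054). In each of them the arrays without males were spread more widely in level than those with males or as widely, and replicate 1 was the lowest of them. Some hsp-16 genes are near-identical in sequence, so a probe set can carry signal of more than 1. Without shared probe sets 6 of the 12 were called higher. Without replicate 1 of the no-males group, or replicate 1 or 2 with males, 4 of the 12 were called.

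Of 26 larger chaperone and co-chaperone genes 8 rose and 0 fell, with a median of 0.24. The co-chaperone gene sti-1, whose protein links Hsp70 and Hsp90, rose from 4.44, 4.40 and 4.52 to 4.92, 5.01 and 5.16 (adjusted p = 0.0019). The constitutive Hsp70 gene hsp-1 rose from 10.64, 10.58 and 10.94 to 11.09, 11.17 and 11.43 (adjusted p = 0.0164), with a call that ended in 3 settings. The count was 2 without replicate 1 or 2 of the no-males group or replicate 3 with males, 4 without replicate 2 with males and 12 without replicate 3 of the no-males group, and 1 without shared probe sets. The heat shock factor gene hsf-1 had one probe set at 0.40 ± 0.11 (adjusted p = 0.0375, ended in 8 settings) and another at 0.19 ± 0.09 (0.23). Of 21 genes of the endoplasmic reticulum's unfolded protein response 3 rose, among them the transcription factor gene xbp-1 by 0.39 ± 0.11 (adjusted p = 0.0412, ended in 6 settings), and of 11 of the mitochondrial one 0 were called in limma's test, and 6 had an unadjusted p under 0.05. The former count was 0 without replicate 1 or 2 of the no-males group or replicate 3 with males, and 1 without replicate 1 with males. Of 33 proteasome genes 3 rose (pbs-7, rpt-5 and rpt-6) and 0 fell, with a median of 0.16. Values above 0 were found in 31 of them and below 0 in 2, against 8114 and 9004 of all 17118 genes. At an unadjusted p under 0.05, 13 proteasome genes were higher and 0 lower. The count of rises was 0 without replicate 1 of the no-males group or replicate 3 with males and 1 without replicate 2 with males.

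Redox enzymes divided in another way. Of 19 genes 5 rose and 6 fell. The manganese superoxide dismutase gene sod-3 rose from 6.33, 6.62 and 6.62 to 7.21, 7.25 and 7.16 (adjusted p = 0.00176). The copper-zinc superoxide dismutase gene sod-5 rose from 3.68, 3.86 and 3.69 to 4.97, 5.82 and 6.22, by 1.93 ± 0.26 (adjusted p = 0.00164). The gene of the extracellular form, sod-4, rose by 0.48 ± 0.10, and the thioredoxin gene trx-1 from 3.27, 3.79 and 3.67 to 4.41, 4.42 and 4.34 (adjusted p = 0.00188). The main cytosolic form, sod-1, fell from 10.46, 10.37 and 10.48 to 10.00, 9.92 and 9.84 (adjusted p = 0.0021), and the peroxiredoxin gene prdx-3 fell from 8.65, 8.60 and 8.69 to 8.28, 8.34 and 8.18 (0.00571). The main mitochondrial form, sod-2, read 7.70 in each array without males and 7.41, 7.51 and 7.33 with males (adjusted p = 0.0251, ended in 6 settings). The fifth rise was that of skn-1, given below, and the other falls were those of prdx-2, prdx-6 and ctl-2. The count of falls was 3 without replicate 1 or 3 of either group.

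Genes that respond to DAF-16, the transcription factor held back by insulin signalling, fell more often than they rose, with 9 of 34 lower and 2 higher, the 2 being sod-3 and hsp-12.6. The gene dao-3 fell from 8.97, 8.65 and 8.97 to 8.15, 7.86 and 7.78 (adjusted p = 0.00186), and dod-24 from 9.23, 9.13 and 9.03 to 8.24, 8.10 and 7.31 (adjusted p = 0.00704). Replicate 3 with males was the lowest array in both. The list holds genes that DAF-16 raises and genes that it lowers. The 4 probe sets of daf-16 itself lay between -0.07 and 0.02, with adjusted p of 0.674 to 0.963. With replicate 1 of the no-males group left out, the falls numbered 5.

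Of 24 insulin-like peptide genes, ligands of the receptor above DAF-16, 7 rose and 0 fell, with a median of 0.06, so that most members had values near 0. The 7 include ins-31, whose rise rests on replicates 1 and 2. It read 6.58, 5.28 and 3.32 with males, and its call ended in 4 settings. The gene ins-4 read 6.29, 6.22 and 6.54 without and 7.52, 7.84 and 7.82 with males (adjusted p = 0.000167). The gene ins-23 rose from 6.07, 6.15 and 6.02 to 6.74, 7.10 and 7.76 (adjusted p = 0.00584) and ins-22 from 7.37, 7.31 and 7.16 to 7.75, 7.96 and 8.26 (0.00344). In ins-22 and ins-23 replicate 3 with males was the highest array and replicate 1 the lowest of that group. The gene ins-7, an agonist made in the intestine, read 8.49, 8.77 and 8.77 without and 9.26, 9.72 and 9.28 with males (adjusted p = 0.0275, ended in 4 settings), and ins-11 rose by 0.78 ± 0.21 (0.0327, ended in 5). The count was 3 without replicate 2 of either group and 4 without replicate 1 of the no-males group. Of 16 genes of the receptor pathway itself 2 fell and 0 rose, the kinase genes pdk-1 by 0.34 ± 0.08 (adjusted p = 0.0148) and sgk-1 by 0.36 ± 0.11 (0.0497), with calls that ended in 1 and 7 settings. Without any one array at most 1 of them was called.

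Of 17 genes known to be needed for, or to promote, long life without a germ line, 3 rose and 2 fell. The fatty acid receptor gene nhr-80 fell from 5.28, 5.1 and 5.26 to 4.79, 4.72 and 4.68 (adjusted p = 0.00934), and the lysosomal lipase gene lipl-4 from 6.67, 6.32 and 6.64 to 5.97, 6.0 and 5.39 (adjusted p = 0.0316, ended in 4 settings). The gene daf-36, for an oxygenase that makes the steroid hormone dafachronic acid, rose from 4.95, 5.07 and 4.90 to 5.35, 5.55 and 5.30 (adjusted p = 0.00875). The stress factor gene skn-1 rose by 0.54 ± 0.12 (adjusted p = 0.016) and pha-4, a forkhead factor gene, by 0.51 ± 0.13 (0.0298), with calls that ended in 2 and 5 settings. The daf-36 and nhr-80 calls held in the 12 settings that kept their probe sets, which are shared and so were not in the setting without such probe sets. The list had 1 rise without replicate 2 of the no-males group or replicate 3 with males.

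Epidermal antimicrobial peptides, small secreted peptides of the nlp and cnc families, had 7 of 18 genes higher and 1 lower, with a median of 0.46. The gene nlp-30 rose from 6.76, 6.86 and 7.38 to 8.15, 8.14 and 7.84 (adjusted p = 0.00266) and nlp-31 from 9.34, 9.81 and 9.83 to 10.55, 10.70 and 10.53 (0.00441). The gene cnc-1 read 4.51, 5.6 and 5.96 without and 7.04, 7.82 and 7.69 with males (adjusted p = 0.00494), and cnc-4 read 9.30, 10.00 and 10.21, then 10.87, 11.07 and 10.77 (0.0098). Replicate 1 was the lowest array without males in all 4 genes. No array without males reached those with males, as at nearly all probe sets that changed and 31.3% of all. Of 13 fungus-induced peptide genes 6 rose and 0 fell, with a median of 0.68. Of these, fip-5 rose from 6.96, 7.09 and 7.46 to 8.54, 9.01 and 8.79 (adjusted p = 0.00188) and fipr-2 from 8.75, 8.58 and 8.81 to 9.50, 9.69 and 9.48 (0.00394), while fipr-16 and fipr-17 were those of the uneven rises described above. These families hold near-identical copies. Without replicates 1 or 2 of the no-males group or replicate 2 with males 4 of the 18 nlp and cnc genes were called higher, and without shared probe sets 2 of them and 1 fungus-induced gene.

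**Figure D4:**
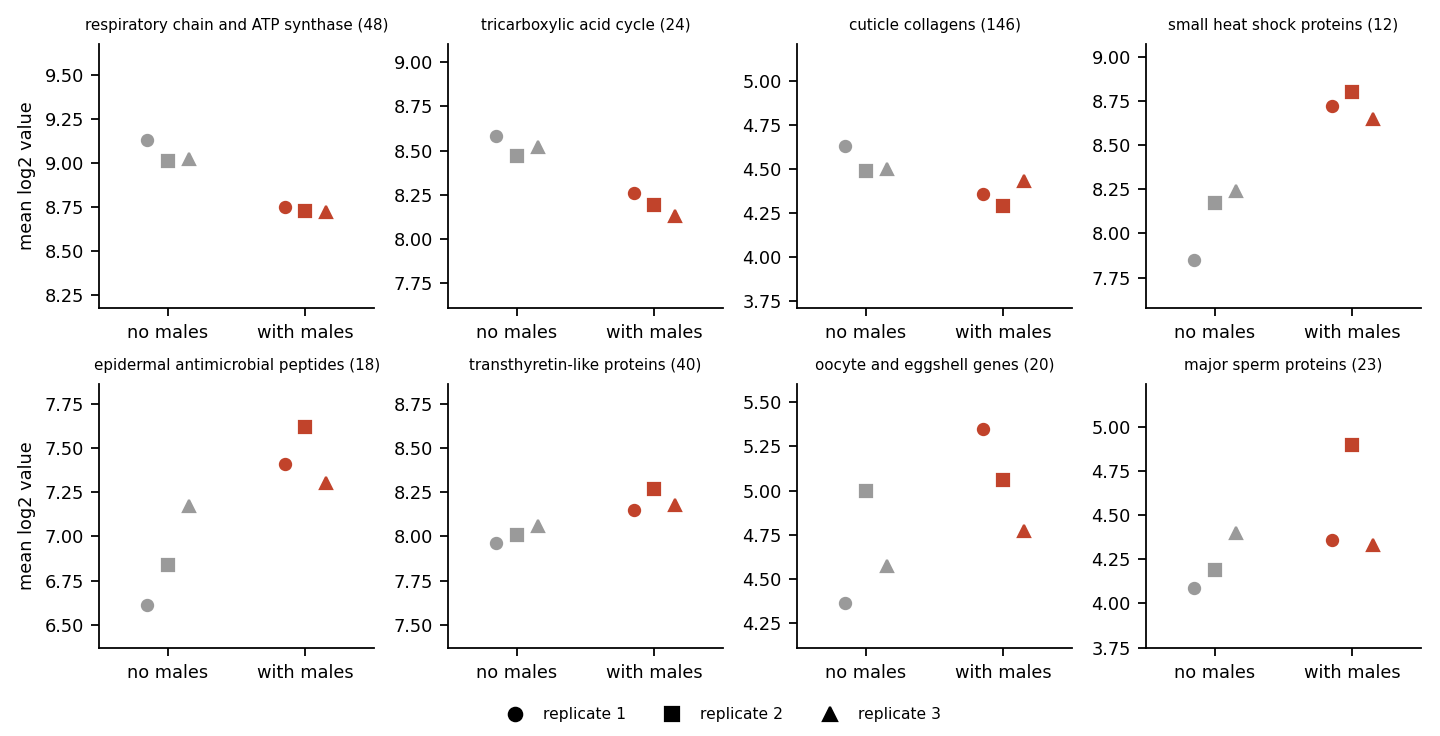
Mean log2 level over the members of 8 gene lists in each of the 6 arrays, without (grey) and with males (red), a symbol per replicate, with every vertical axis spanning 1.5 log2 units. The groups are apart in the respiratory chain and small heat shock lists and overlap in the oocyte and major sperm protein lists, where replicate 1 or replicate 2 with males is the highest.

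Lysozyme, saposin-like and C-type lectin genes moved in both directions. Of 34 lysozyme and saposin-like genes, for proteins that break bacterial walls and membranes, 9 fell and 5 rose. The lysozyme gene lys-8 fell from 10.03, 9.69 and 9.85 to 9.14, 9.01 and 8.74 (adjusted p = 0.00145), whereas lys-3 rose as described. The saposin-like gene spp-18 rose from 6.94, 6.81 and 6.96 to 7.92, 8.27 and 8.36 (adjusted p = 0.00154). The count of rises was 3 without any single array other than replicate 3 with males. The 220 C-type lectin genes had 26 falls (11.8%) and 12 rises (5.45%), and the share of rises is near that over all genes. Of the 220, 58 lay above the median level of all probe sets. The gene clec-56 fell from 8.68, 8.38 and 8.40 to 7.33, 7.20 and 7.04 (adjusted p = 0.00039), clec-65 from 9.63, 9.28 and 9.68 to 8.52, 8.13 and 7.82 (0.000727) and clec-85 from 9.03, 8.94 and 9.15 to 8.23, 8.01 and 7.67 (0.00101). The rises include clec-94, clec-197 and clec-219, which rest on replicates 1 and 2 with males. The count of rises was 5 without replicate 1 and 7 without replicate 2 of the no-males group, and 7 without replicate 1 with males.

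Other infection response genes rose more often, with 7 higher and 4 lower among 26. The genes irg-1 and irg-2 rose together, irg-1 from 4.92, 5.84 and 5.50 to 6.60, 6.55 and 6.60 (adjusted p = 0.00276) and irg-2 from 7.36, 8.18 and 8.05 to 9.19, 9.06 and 9.43 (0.00209). In the same list irg-3 fell from 6.93, 6.54 and 6.38 to 5.16, 5.29 and 5.21 (adjusted p = 0.000581). Without replicate 1 of the no-males group 4 of this list rose and 2 fell. Of 23 genes of the pals family, known for their rise upon infection of gut cells by intracellular parasites, 6 rose and 1 fell (pals-31, by 0.28), with a median of 0.20. The gene pals-5 rose from 2.67, 3.00 and 3.43 to 4.13, 5.01 and 4.68 (adjusted p = 0.00296) and pals-32 from 4.94, 5.64 and 5.32 to 6.23, 6.12 and 6.37 (0.0025). The call of pals-31 ended without any one array. Among 31 SCP/TAPS genes 7 fell and 4 rose, and of the rises scl-8 (3.09, 3.15 and 3.49 without, 6.50, 4.90 and 3.89 with males), scl-7 and scl-15 were highest in replicate 1 with males. Without that array their differences were 1.15, 0.40 and 0.40 instead of 1.86, 0.70 and 0.69. The family had 1 rise without replicate 1 or 2 of the no-males group and 2 without replicate 3 of that group or replicate 2 with males, and its falls numbered 4 without replicate 1 of the no-males group and 3 without replicate 2 with males.

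Transthyretin-like proteins, a large family of secreted proteins, had 10 of 40 genes higher and 0 lower, with a median of 0.11. The gene ttr-18 read 9.40, 9.89 and 9.87 without and 10.70, 11.10 and 10.93 with males, a rise of 1.19 ± 0.19 (adjusted p = 0.00309). The gene ttr-32 rose from 9.03, 9.13 and 9.21 to 9.89, 10.27 and 10.00 (adjusted p = 0.00164) and ttr-8 from 7.54, 7.87 and 7.76 to 8.60, 8.95 and 8.69 (0.00131). Replicate 2 was the highest array with males in these 3 genes. The count was 6 without replicates 1 or 2 of the no-males group or replicates 2 or 3 with males.

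Cuticle collagen genes, made by the epidermis, had 24 of 146 members lower and 1 higher. The adult-stage collagen gene col-19 fell from 4.79, 4.49 and 4.49 to 3.42, 3.33 and 3.3 (adjusted p = 0.000359). The gene col-118 fell from 6.66, 6.73 and 7.08 to 5.89, 5.51 and 5.36 (adjusted p = 0.00139), sqt-3 from 10.43, 10.29 and 10.15 to 9.75, 9.44 and 9.76 (0.00526) and col-140 from 7.04, 7.10 and 6.71 to 6.07, 5.49 and 5.97 (0.00695). The one that rose, col-116, moved by 0.46 ± 0.08. The 4 epidermal markers, whose means without and with males did not overlap, are collagen genes themselves, and col-19 was the one of them that was called, so that fewer epidermal cells and lower collagen RNA were not told apart. With replicate 1 of the no-males group left out, 9 collagen genes were lower, without replicate 2 with males 10, and without shared probe sets 11. In the basement membrane list, the integrin genes pat-2 and pat-3 and the fibulin gene fbl-1 rose, fbl-1 from 5.62, 5.80 and 5.69 to 6.34, 6.36 and 6.49 (adjusted p = 0.00234), and the perlecan gene unc-52 fell by 0.44 ± 0.12 (0.0394, ended in 5 settings). Of 34 muscle genes 2 rose (act-3 and act-4) and 2 fell (mlc-2 and csq-1), with 1 rise without any one array and 0 falls without any but replicate 1 with males, and the myosin gene unc-54 had a value of -0.08 ± 0.11 (adjusted p = 0.733).

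Of 25 FMRFamide-like peptide genes 0 passed limma's test and 1 had an unadjusted p under 0.05, and of 48 neuropeptide-like genes 4 rose (nlp-2, nlp-39, nlp-52 and nlp-80), with 1 without replicate 1 of the no-males group and 2 without replicate 2 of either group or replicate 3 with males. Of 11 genes of GABA neurons 2 fell, unc-47 and gta-1, and 0 rose. The vesicular GABA transporter gene unc-47 fell from 4.49, 4.34 and 4.18 to 3.84, 3.76 and 3.89 (adjusted p = 0.00359). The decarboxylase gene bas-1, needed for dopamine and serotonin, fell from 6.85, 6.61 and 6.77 to 6.19, 6.02 and 5.63 (adjusted p = 0.00708). Of 1325 genes with names of the chemoreceptor type 19 rose (1.43%) and 18 fell (1.36%), against 5.61% and 6.86% over all genes. Only 66 of the 1325 lay above the median level of all probe sets. The gene sri-40 rose from 3.52, 3.29 and 3.58 to 4.64, 5.20 and 4.95 (adjusted p = 0.000326). The 259 nuclear hormone receptor genes had 19 falls (7.34%) and 9 rises (3.47%), and the share of falls is near that over all genes. Among them were nhr-76, from 8.06, 7.81 and 7.85 to 7.11, 7.03 and 6.66 (adjusted p = 0.0018), and nhr-3, from 7.82, 8.27 and 8.11 to 8.83, 8.88 and 9.16 (0.00202). Without replicate 1 of the no-males group 7 chemoreceptor genes rose and 3 fell, and 4 nuclear hormone receptor genes rose and 6 fell. Over the other single arrays the chemoreceptor rises ranged from 12 to 20 and the falls from 5 to 11. The nuclear hormone receptor rises were 4 without replicate 3 with males, and the falls 11 without that array and 8 without replicate 3 of the no-males group.

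Of 19 genes that write or erase methyl groups on lysines 27 and 4 of histone H3, 2 rose, both of the JmjC demethylase family, jmjd-3.3 from 4.86, 4.85 and 4.98 to 5.51, 5.30 and 5.33 (adjusted p = 0.00424) and jmjd-3.1 from 3.34, 3.63 and 3.61 to 3.91, 3.92 and 3.92 (0.0428, ended in 7 settings), and without any one array 1 gene of the list rose. Their relative utx-1 read 7.04, 7.08 and 7.14 without and 7.03, 7.13 and 7.10 with males at one probe set, and 11.54, 12.45 and 12.01, then 12.58, 13.07 and 13.09 at the other (adjusted p = 0.133). Of 37 histone genes, which are near-identical within a class and share probe sets, 7 rose and 1 fell, with 2 rises without replicate 1, 3 without replicate 2 of the no-males group or replicate 3 with males, 4 without replicate 2 with males and 1 without shared probe sets. The mutator genes mut-15 and mut-14, needed for RNA interference, fell by 0.51 ± 0.09 and 0.41 ± 0.09 (adjusted p = 0.00483 and 0.0161). Of 45 germ cell genes 2 rose (gld-2 and glh-1) and 1 fell (htp-3), with calls that ended in 1, 7 and 4 settings. There was 1 rise without replicate 1 or 3 of the no-males group or replicate 1 or 2 with males, and there were 0 falls without any one array of the no-males group or replicate 3 with males. The gene glp-1 itself read 5.27, 6.08 and 5.86 without and 5.54, 5.86 and 5.54 with males (adjusted p = 0.797).

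The same probe sets were read in the arrays under utx-1 RNAi. There 11.8% of all probe sets rose and 9.03% fell with males. Of the 1275 probe sets that rose without RNAi, 1088 had the same sign under RNAi and 499 were called in the same direction. Of the 1386 that fell, 1235 had the same sign and 769 were called. The difference between the males effects under and without RNAi passed limma's test at 115 of these 1275 rises and 100 of the 1386 falls, against 1725 of all 22548 probe sets (7.65%). Both shares are near that over all probe sets, so nothing is read from these counts. Of the 20 largest falls, 19 were called lower under RNAi too, with Y39G8B.7 as the exception (-0.62, adjusted p = 0.256), and their median difference was -1.63 there and -1.61 without RNAi. Of the 20 largest rises 5 were called higher under RNAi (T23F2.4, hsp-16.21, K11H12.6, F14F8.8 and ZK669.2). The median difference of the 20 was 0.24 there and 2.51 without RNAi, where they had been chosen. The difference between both effects passed limma's test at 3 of these 20 rises and at 0 of the 20 falls. Of those 20 rises, 10 are among the probe sets high in replicates 1 and 2 with males. The median SD of the 3 arrays with males was 1.44 for the 20 rises and 0.36 for the 20 falls.

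**Figure D5:**
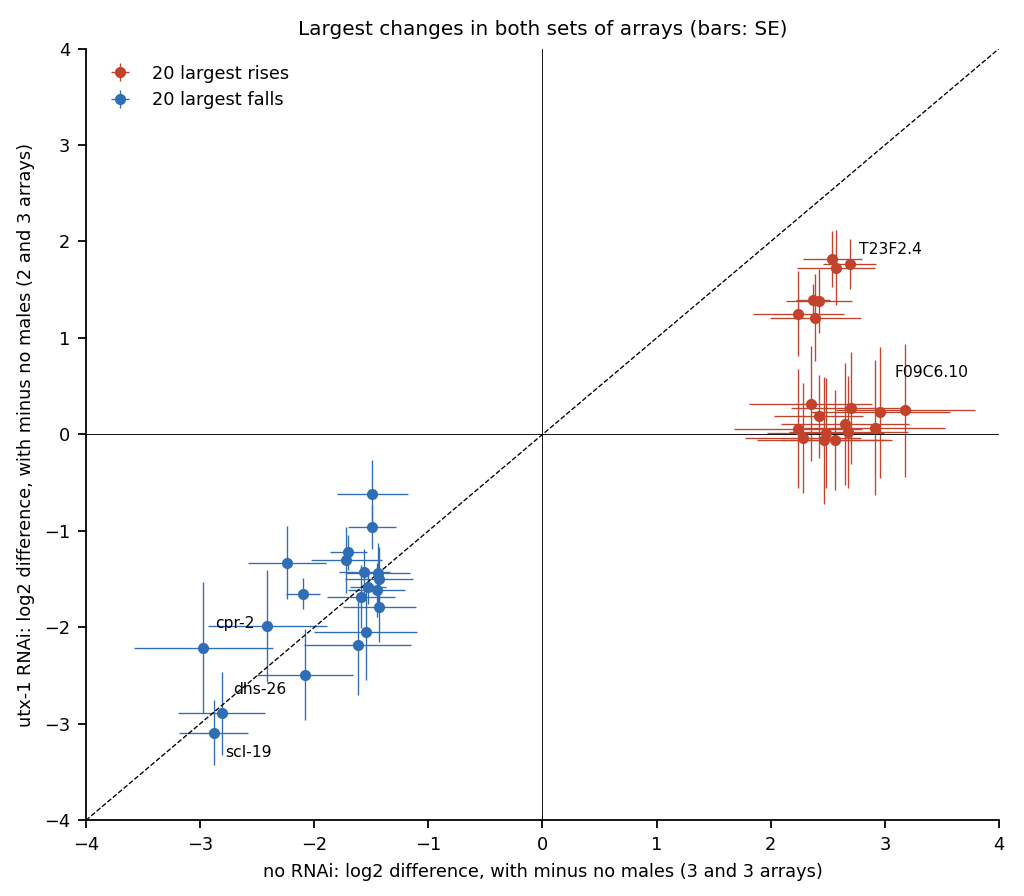
Males effect under utx-1 RNAi (vertical axis, log2, 2 arrays against 3) against that without RNAi (horizontal axis, log2, 3 against 3) for the 20 largest rises (red) and falls (blue), chosen on the horizontal axis, with standard errors as bars and equal values as the dashed line. The falls follow the line, with scl-19 at -2.88 and -3.09, and a group of rises such as F09C6.10, at 3.18 and 0.25, lies near 0 under RNAi. In limma's test of the difference between both effects F09C6.10 had an adjusted p of 0.0836.

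Under RNAi 17 of 48 respiratory chain genes fell and 4 rose, with a median of -0.25, and 10 of 19 genes of amino acid breakdown fell, with a median of -0.42. Lower collagens numbered 34 of 146, and higher epidermal antimicrobial peptide genes 8 of 18. The mitochondrial ribosomal list had 8 rises and 1 fall of 59 under RNAi, with a median of 0.04, against 1 and 13 without it. Large chaperones had 4 rises and 1 fall of 26, and small heat shock proteins 5 and 2 of 12. Over all 17118 genes 2115 rose and 1632 fell under RNAi, with a median of -0.03. The shares of rises in the mitochondrial ribosomal and large chaperone lists are near that over all genes, so nothing is read from them. In the difference between both effects, limma's test passed for sod-3 (adjusted p = 0.0338), ugt-16 (0.00282), ugt-9 (0.0156) and pals-32 (0.00806), each of which rose without RNAi. Under it ugt-16 and ugt-9 rose by 0.82 and 0.98, and sod-3 and pals-32 had values of 0.13 and -0.13 (adjusted p = 0.425 and 0.625). The differences between lists were not tested.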

How the data were processed

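The authors deposited a log2 value for each probe set on each array. The submitters' processing notes name RMA, whose version and settings are not given in the sources that were used, and RMA's quantile step, if run on all arrays together, would make their distributions alike. Of 22625 probe sets, 77 controls were left out. Of the other 22548, 20766 carried 1 gene symbol, 887 several and 895 none, and only the first were named. Symbols of 20701 were found in RefSeq's table (WBcel235, used for names only).

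One linear model with a mean per group was fitted to all 11 arrays in R 4.3.3 with limma 3.58.1 (residual df 7), tested on simulated data first. It gave 3 contrasts: males without RNAi, males under utx-1 RNAi, and their difference. All 22548 probe sets entered the Benjamini-Hochberg adjustment of each contrast, and the threshold was 0.05. A gene was represented by its brightest probe set. Named genes are the 20 largest rises and falls among called genes whose groups did not overlap, and the 8 of highest signal in each direction among changes of at least 1.5-fold. Up to 4 rises and 4 falls of smallest p per list and a few followed genes are named too, and any other is said to be picked later. The genes and lists were chosen with earlier results of these data known.

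The titles number the replicates. Same-numbered arrays of the groups deviated with r of -0.186, -0.122 and -0.333, so the numbers were not taken as pairs. The number of arrays limits the precision, with a median standard error of 0.095. Alternatives covered the arrays in the fit, the prior, the scaling, dim or shared probe sets, a replicate block and leaving out each array. No promoter motifs were searched.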

Additional observations from a re-analysis of the deposited data

Results flagged for a closer look

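At 30 of the 347 named probe sets the males effect under utx-1 RNAi differed from that without RNAi in limma's test of the difference itself (adjusted p under 0.05 over all probe sets, 3 against 3 arrays without and 3 against 2 under RNAi). That share is near the 7.65% of all probe sets at which this test passed, so nothing is read from the count. The values are the log2 effect under RNAi minus that without. The labels name no group fed an empty vector, and the 2 arrays with males under RNAi hold the raised germ line and oocyte lists, whose part in these differences was not tested.

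Among genes of the germ line and oocytes the difference was 4.25 for trcs-1, 3.34 for iff-1, 2.51 for htp-3, 2.42 for rnr-2, 1.4 for glp-1, 1.22 for ego-1, 0.63 for mbk-2 and 0.48 for glh-1. The mutator genes mut-15 and mut-14 had 0.69 and 0.56. At the probe set of utx-1 with the higher signal it was 2.37.

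Among genes that rose without RNAi, the difference was -2.62 for T26A8.3, -2.22 for the lectin gene clec-94, -0.99 for ZK669.2, -0.99 for dhs-4, -1.03 for ugt-9 and -1.02 for ugt-16. It was -1.35 for pals-29, -1.07 for pals-32, -0.55 for sod-3, -0.48 for the co-chaperone gene sti-1, -0.66 for xbp-1 and -0.59 for the integrin gene pat-2. The myosin gene unc-54, not called without RNAi, had -0.77, and pals-31, which fell without RNAi, -0.47.

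Among genes that fell without RNAi, the difference was 0.70 for the glycogen phosphorylase gene pygl-1, 0.50 for sod-2, 0.40 for dlat-1 and 0.39 for the complex I gene nuo-6. The ABC transporter gene wht-2 had 1.08.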

How the results depend on the processing

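The count of probe sets that changed was between 2344 and 2923 with only the 6 arrays, a trended and robust prior, quantile normalization, arrays centred on the median, or without the dimmer probe sets. Without shared probe sets it was 1769, with 905 falls, from fewer probe sets tested. Leaving out single arrays gave 1362 to 2048 changes, 673 to 1139 rises and 689 to 1047 falls, from fewer samples. The replicate block gave 1552 changes, 789 rises and 763 falls, and the replicate numbers did not pair the samples. It used the numbers of the titles, which for 2 arrays under utx-1 RNAi differ from those of the descriptions. Of 347 named probe sets 335 were called, of which 126 lost the call in at least 1 of the 13 settings and the others kept it in every setting that held them. None of the 347 reversed its sign as a called value in these settings. The cause of the lost calls was not tested beyond the fewer samples or probe sets of these settings.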

Other observations

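Of 395 genes for F-box and MATH domain proteins, which bring targets to ubiquitin ligases, 17 rose and 17 fell (4.3% each), with a median of 0.00. Both shares are below those over all genes. Without single arrays the falls numbered 7 to 12, with 12 without replicate 1 with males and 9 or fewer without each of the others. The rises were 10 without replicate 1 of the no-males group, 11 without replicate 2 with males and 13 to 17 without the others. Of 36 genes of Argonaute and small RNA pathways 1 rose and 3 fell, with 1 fall without replicate 1 of the no-males group or replicate 3 with males, and 0 rises without replicate 1 or 3 of the no-males group or replicate 1 or 2 with males. Of 24 genes of the TGF-beta and dauer hormone pathway 2 rose and 3 fell, and 1 rose without replicate 1 or 2 of the no-males group or replicate 2 or 3 with males. Of 80 hedgehog-related and Patched-related genes 2 rose and 2 fell, and without single arrays the rises ranged from 0, without replicate 2 of the no-males group, to 3 and the falls from 0, without replicate 3 of either group or replicate 2 with males, to 1. Of 23 sex determination genes 0 were called in limma's test, and 4 had an unadjusted p under 0.05.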
